A study of Mus musculus with 8 samples.

Results

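The UDP-glucuronosyltransferases (UGT), glutathione S-transferases (GST) and sulfotransferases (SULT) are the enzyme families that join drugs, hormones, bile acids and bilirubin to a polar group. Their members were taken as the protein-coding genes of GENCODE release M21 whose symbol starts with Ugt1, Ugt2 or Ugt3, with Gsta, Gstm, Gstp, Gstt, Gsto, Gstk or Gstz, or with Sult, followed by a digit. The rule found 64 of 21924 protein-coding genes, of which 21 are UGT, 22 are GST and 21 are SULT genes. The data are H3K27ac ChIP-seq in primary hepatocytes (MPH) of adult male WT mice on a C57Bl6 background, kept in culture without serum for a 4 h exposure. One group received 1 µM thapsigargin, which blocks the calcium pump of the endoplasmic reticulum and so induces ER stress, and the control group received the vehicle (0.04% DMSO). Each treatment has 3 H3K27ac libraries and 1 input library.

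The deposited files used here are 3 lists with 32196 regions of mm10 (GRCm38), none of which overlaps another. They class each region as H3K27ac UP, DOWN or unchanged by thapsigargin, after a test by the authors that paired the libraries by experiment. The lists give positions only, so no region has a read count, fold change or p-value here, the depth is unknown, and the spread between experiments cannot be given. A gene counted in a class where the transcription start site (TSS) of any of its transcripts lay in a region of that class. A TSS in no listed region is not shown to lack H3K27ac. Signal at background level and called peaks of mixed direction are in none of the lists. Of 8 hepatocyte markers, 7 had a TSS in a region, and Cyp2e1 had none. Of the markers of other liver cells, 1 of 4 Kupffer cell genes (Cd68), 1 of 4 endothelial genes (Stab2), 0 of 4 stellate cell genes, 1 of 4 cholangiocyte genes (Sox9) and 0 of 3 lymphocyte genes did.

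H3K27ac marks active promoters and enhancers, and a wide stretch of it often covers the promoter and first exons of a gene that is highly active in its tissue. UGT enzymes sit in the membrane of the endoplasmic reticulum and use UDP-glucuronate, GST enzymes use glutathione against electrophiles, and SULT enzymes use PAPS, the activated form of sulfate. Most of these genes arose by tandem duplication and lie in clusters, and the Ugt1a genes go further, as each joins its own first exon to a shared set of downstream exons.

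The changed promoters differ in sequence and in the region they lie in, so 10 of them are shown. They are the bases from 200 before the RefSeq TSS to the base before it, in mm10 and 5′ to 3′ along the gene, for members whose RefSeq TSS lies in an UP or DOWN region. At most 30 bases of a printed sequence were allowed to lie in an annotated untranslated region. The Gstp1 sequence therefore stops at base -44, and its last 30 bases lie in such a region of another transcript. That of Sult1c2 is not shown, since all 200 of its bases lie in one. Capitals mark matches to the short motifs named further on.
Ugt1a6a (UP, chr1:88134609-88134808, plus strand): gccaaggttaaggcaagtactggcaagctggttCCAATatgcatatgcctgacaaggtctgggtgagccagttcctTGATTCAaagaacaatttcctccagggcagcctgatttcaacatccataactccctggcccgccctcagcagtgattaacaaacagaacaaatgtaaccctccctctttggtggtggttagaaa
Ugt2b34 (UP, chr5:86906938-86907137, minus strand): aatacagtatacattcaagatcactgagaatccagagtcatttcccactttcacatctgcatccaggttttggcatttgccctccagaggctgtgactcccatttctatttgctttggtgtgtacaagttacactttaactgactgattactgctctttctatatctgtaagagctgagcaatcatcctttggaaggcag
Ugt2b36 (DOWN, chr5:87092556-87092755, minus strand): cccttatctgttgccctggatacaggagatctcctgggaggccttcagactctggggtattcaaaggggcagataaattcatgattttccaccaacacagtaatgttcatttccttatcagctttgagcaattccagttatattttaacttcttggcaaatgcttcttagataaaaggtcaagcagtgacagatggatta
Gsta3 (UP, chr1:21240385-21240584, plus strand): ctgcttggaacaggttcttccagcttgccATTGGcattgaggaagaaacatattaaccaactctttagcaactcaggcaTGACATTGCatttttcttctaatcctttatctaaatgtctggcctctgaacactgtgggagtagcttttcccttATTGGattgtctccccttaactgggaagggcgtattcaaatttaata
Gstz1 (UP, chr12:87146965-87147164, plus strand): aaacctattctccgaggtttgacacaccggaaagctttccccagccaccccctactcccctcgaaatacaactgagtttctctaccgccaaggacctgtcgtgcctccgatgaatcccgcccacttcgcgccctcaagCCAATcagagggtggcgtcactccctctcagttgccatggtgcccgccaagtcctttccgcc
Gsto1 (UP, chr19:47854773-47854972, plus strand): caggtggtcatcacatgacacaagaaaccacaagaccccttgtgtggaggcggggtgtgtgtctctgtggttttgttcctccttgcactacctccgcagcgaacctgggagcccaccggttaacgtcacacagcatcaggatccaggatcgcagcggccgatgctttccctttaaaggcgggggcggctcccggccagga
Gstp1 (DOWN, chr19:4037956-4038112, minus strand): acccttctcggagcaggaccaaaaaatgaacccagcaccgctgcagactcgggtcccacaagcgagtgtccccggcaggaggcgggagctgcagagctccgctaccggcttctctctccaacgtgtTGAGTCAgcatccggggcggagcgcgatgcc
Gstp3 (DOWN, chr19:4059448-4059647, minus strand): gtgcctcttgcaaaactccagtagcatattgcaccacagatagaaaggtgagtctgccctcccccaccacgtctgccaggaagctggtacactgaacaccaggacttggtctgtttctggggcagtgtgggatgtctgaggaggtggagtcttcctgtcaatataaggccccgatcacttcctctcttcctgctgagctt
Sult1a1 (DOWN, chr7:126676419-126676618, minus strand): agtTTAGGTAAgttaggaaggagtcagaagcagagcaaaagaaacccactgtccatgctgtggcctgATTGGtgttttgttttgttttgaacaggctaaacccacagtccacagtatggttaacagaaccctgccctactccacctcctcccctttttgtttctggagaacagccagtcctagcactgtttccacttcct
Sult2a8 (DOWN, chr7:14438552-14438751, minus strand): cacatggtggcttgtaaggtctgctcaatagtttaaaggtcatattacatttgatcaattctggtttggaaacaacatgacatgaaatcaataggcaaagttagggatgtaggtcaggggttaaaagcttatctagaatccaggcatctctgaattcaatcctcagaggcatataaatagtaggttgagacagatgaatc

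An H3K27ac region lay at a TSS of 20 GST, 12 UGT and 5 SULT genes, and each family had members at UP and at DOWN regions. A TSS lay in a region of any class for 37 members (57.8%), where 44.7% of all protein-coding genes did. These were 90.9% of the GST, 57.1% of the UGT and 23.8% of the SULT genes. Of the 37 members, 6 (16.2%) were at an UP region, 7 (18.9%) at a DOWN region and 25 at unchanged regions only. Over all 9805 protein-coding genes in a region, 21.7% were at UP and 8.31% at DOWN, so the members were below the background for UP and above it for DOWN. With 37 genes these shares are coarse (95% Wilson intervals, which cover counting error only, of 7.65% to 31.1% for UP and 9.48% to 34.2% for DOWN), and members of a cluster are not independent. Members at any changed region numbered 12 (32.4%), close to the 29.5% of all genes in a region.

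The UP regions held the TSSs of Ugt1a6a, Ugt2b34, Gsta3, Gstz1, Gsto1 and Sult1c2. The DOWN regions held TSSs of Ugt2b36, Gsta3, Gsta2, Gstp1, Gstp3, Sult1a1 and Sult2a8. Gsta3 was the only member in both classes. Each family therefore had members on both sides, with 2 UP and 1 DOWN among the UGT genes, 3 UP and 4 DOWN among the GST genes and 1 UP and 2 DOWN among the SULT genes.

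**Figure D1:**
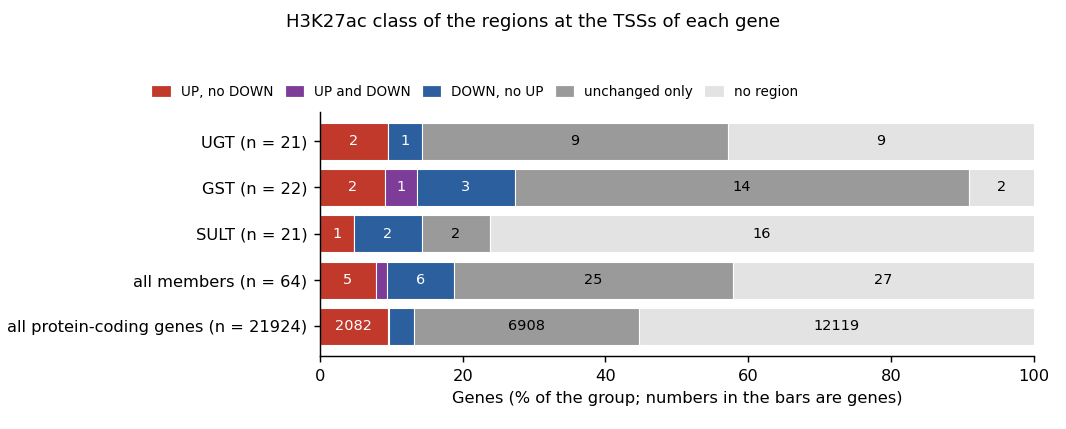
Class of the H3K27ac regions at the TSSs of the 21 UGT, 22 GST and 21 SULT genes, of all 64 members and of all 21924 protein-coding genes, as a percentage of each group, with the number of genes written in the wider parts of each bar. Genes without a region are 2 of 22 in the GST family and 16 of 21 in the SULT family, and the bar of all members has a wider DOWN part than that of all protein-coding genes.

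Among the UGT genes, the changed regions at a TSS were all wider than 5 kb. Ugt1a6a, which conjugates small planar phenols (ENSMUSG00000054545.17, chr1:88134809-88218997, plus strand), had all 4 of its TSSs in 1 UP region of 10612 bp, the widest region at any member. The region reached from 1402 bp before the 5′ end of the gene to 9209 bp after it, and so covered its 5′ part. Of the other 8 Ugt1a genes, 4 had TSSs in unchanged regions only (Ugt1a9, Ugt1a7c, Ugt1a6b and Ugt1a5) and 4 had none in a region (Ugt1a10, Ugt1a8, Ugt1a2 and Ugt1a1). Ugt1a1, the enzyme that clears bilirubin, had its nearest region 4440 bp from its TSS, and that region was unchanged. The Ugt1 cluster spans 165 kb, and with 10 kb added on each side it held 13 regions. The one at Ugt1a6a was UP and the other 12 were unchanged. Over all 32196 regions, 17.1% were UP and 10.5% DOWN.

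Ugt1a6b, the near copy of Ugt1a6a next to it on the chromosome, was in the other class. Both of its TSSs lay in an unchanged region of 8968 bp (chr1:88102577-88111544), the widest unchanged region at a UGT gene, which also held 1 of 4 TSSs of Ugt1a7c. That TSS is the same base as a TSS of Ugt1a6b, and the other 3 of Ugt1a7c lay in an unchanged region of 569 bp. The regions at the copies are partly the same sequence. Of the words of 50 bases in the Ugt1a6a region, 23.8% also occurred in the Ugt1a6b region, and 73.7% occurred once in the assembled chromosomes of mm10, against 70.0% in the Ugt1a6b region. How reads with several matches were treated is not given in the sources used here, and its part in these classes was not tested.

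In the Ugt2 genes, whose products conjugate steroids, bile acids and other lipids, UP and DOWN regions lay among unchanged ones. Ugt2b34 (ENSMUSG00000029260.15, chr5:86889767-86906937, minus strand) had its single TSS in an UP region of 5541 bp, which ran from 1029 bp before it to 4511 bp after it. Ugt2b36 (ENSMUSG00000070704.10, chr5:87065927-87092555, minus strand) lay with all 4 TSSs inside a DOWN region 5897 bp wide, which reached 785 bp upstream and 5111 bp downstream of its 5′ end. The neighbours Ugt2b1 (3269 bp), Ugt2b35 (6350 bp) and Ugt2b5 (3005 bp) had theirs in unchanged regions, as did Ugt2a3 (2563 bp) farther along the chromosome. No TSS of Ugt2b37, Ugt2b38, Ugt2a1 or Ugt2a2 lay in a region, and a DOWN region of 1567 bp lay 7569 bp from that of Ugt2a1. The 5 genes from Ugt2b34 to Ugt2b5 span 251 kb. This stretch with 10 kb on each side held 22 regions, with 4 UP, 2 DOWN and 16 unchanged. These shares are close to the 17.1% UP and 10.5% DOWN of all regions. UP regions lay 9408 bp from the TSS of Ugt2b1, 7309 bp from that of Ugt2b5 and 9873 bp from the nearest TSS of Ugt2b36, the DOWN gene. Of the Ugt3 genes, whose products use other sugar donors, Ugt3a2 was at an unchanged region of 1298 bp, and Ugt3a1 had no region at a TSS and an UP region of 813 bp at 6805 bp from the nearest one.

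**Figure D2:**
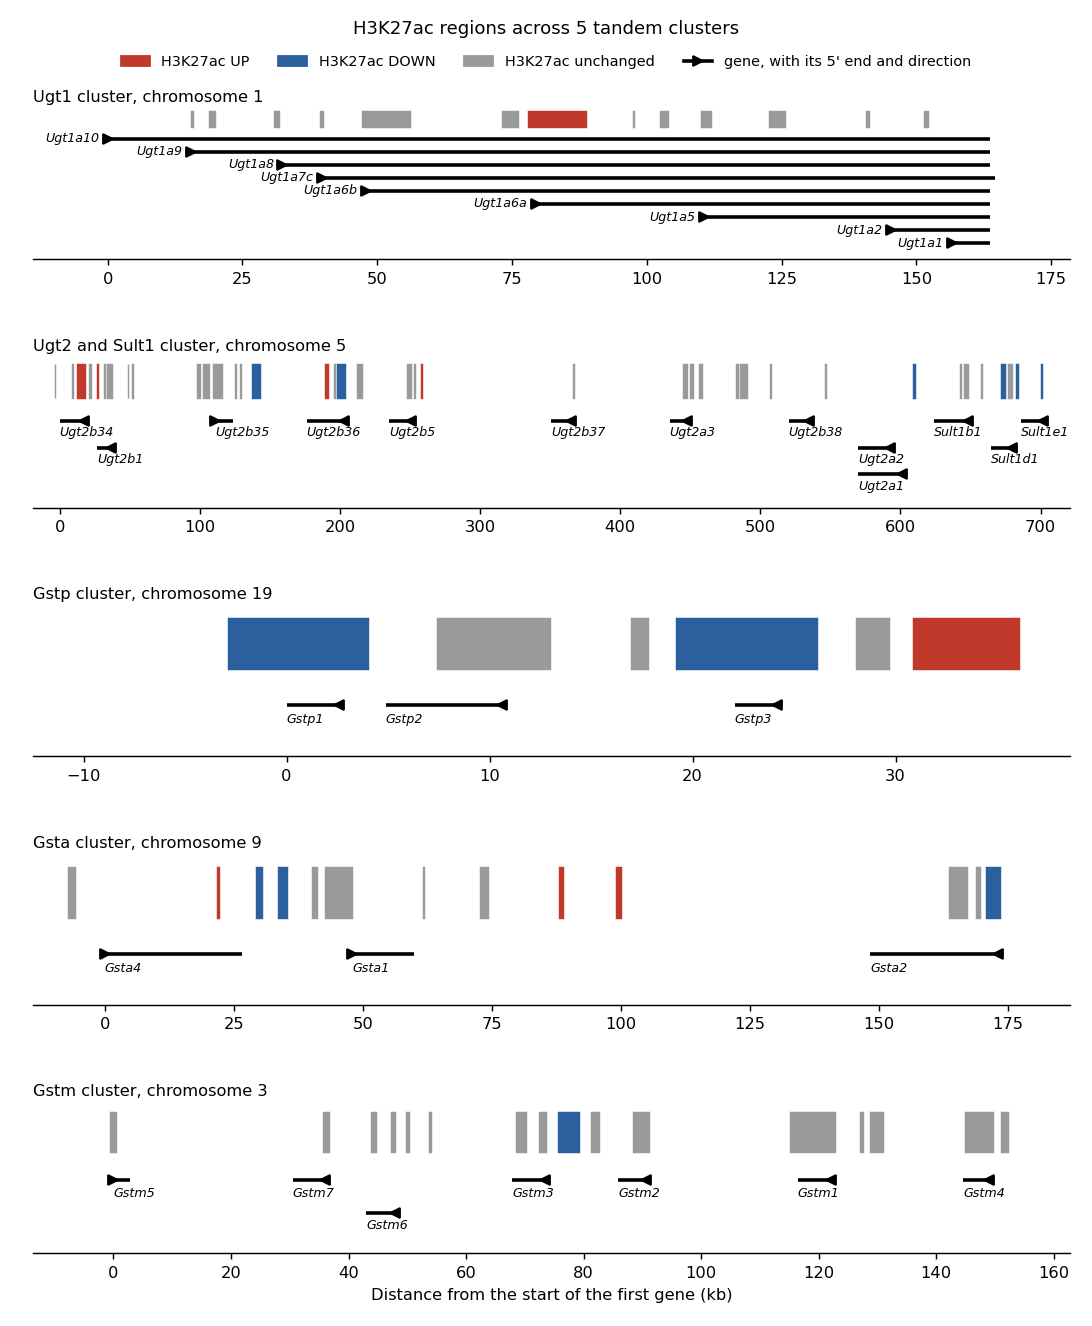
H3K27ac regions (boxes, coloured by class) and gene bodies (black lines, with an arrowhead at the 5′ end pointing in the direction of transcription) across the Ugt1, the joined Ugt2 and Sult1, the Gstp, the Gsta and the Gstm clusters, with distance in kb from the start of the first gene on the x axis. One UP region lies among 12 unchanged regions in the Ugt1 cluster, UP and DOWN regions lie among unchanged ones in the Ugt2 cluster, and the Gstp cluster has DOWN regions on both sides of an unchanged region.

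In the GST family, 4 of the 20 genes in a region were at DOWN (20%) and 3 at UP (15%), where all genes in a region had 8.31% and 21.7%. Gsta3, an alpha class enzyme that detoxifies the epoxide of aflatoxin in mice (ENSMUSG00000025934.15, chr1:21240589-21265661, plus strand), was in both classes because 2 adjacent regions cover most of the gene. All 3 protein-coding transcripts of Gsta3 start in an UP region of 10492 bp, which ran from 1152 bp before the 5′ end to 9339 bp after it. A DOWN region of 5998 bp lay inside the gene, ended 16338 bp after the 5′ end and held only the start of a transcript with a retained intron. The gap between the 2 regions is about 1 kb, and together they covered 61.2% of the gene body. With protein-coding transcripts alone, Gsta3 would count as UP only.

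The other alpha class genes lie together on chromosome 9, where 6 regions were changed and 1 of them held a TSS of a member. Gsta2 (ENSMUSG00000057933.10, chr9:78331018-78355788, minus strand) had its farthest upstream protein-coding start in a DOWN region of 2726 bp, and its other 2 protein-coding starts in an unchanged region of 3307 bp. Gsta1 had a TSS at the edge of an unchanged region of 5367 bp, of which 5306 bp lay before the TSS. Gsta4, which acts on products of lipid peroxidation, had no TSS in a region, and an UP region lay in its gene body. Over 173 kb with 10 kb on each side, the cluster held 13 regions, with 3 UP, 3 DOWN and 7 unchanged. All regions had 17.1% UP and 10.5% DOWN. Of the words of 50 bases within 1 kb of the 5′ end, 23.9% at Gsta1, 54.0% at Gsta4 and 96.8% at Gsta2 occurred once in mm10, and 82.9% of those in the DOWN region at Gsta2 did.

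The pi class cluster on chromosome 19, whose enzymes conjugate reactive electrophiles, had the largest covered share of the 12 clusters. Gstp1 (ENSMUSG00000060803.6, chr19:4035407-4037985, minus strand) lay wholly in a DOWN region of 6896 bp with all 9 of its TSSs, and Gstp3 (ENSMUSG00000058216.13, chr19:4057477-4059569, minus strand) lay wholly in a DOWN region of 6930 bp with all 4. Gstp2 lies between them, and 2 of its 6 TSSs were in an unchanged region of 5579 bp. Its RefSeq TSS lay in the interval of no region between that region and the DOWN region at Gstp1, whose nearest base was 1463 bp from a Gstp2 TSS. The cluster spans 24.2 kb, and with 10 kb on each side 57.0% of it was covered by 6 regions in the order DOWN, unchanged, unchanged, DOWN, unchanged, UP. DOWN regions made 54.9% of the covered bases, and the UP region, 5246 bp wide, lay 6693 bp from a TSS of Gstp3. In the 250 bases before the TSS, Gstp1 and Gstp2 were 78.5% identical, where pairs of members from different families had a median of 48.5%. Within 1 kb of the RefSeq TSS, 80.6% of words of 50 bases at Gstp1, 79.7% at Gstp2 and 94.2% at Gstp3 occurred once in mm10.

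The mu class genes, which code for cytosolic enzymes, had no changed region at a TSS. All 7 of them (Gstm1 to Gstm7) were at unchanged regions only, where 70.5% of all genes in a region were. These were from 729 bp (Gstm6) to 7723 bp (Gstm1) wide, and the Gstm1 region was the widest unchanged region at a GST gene. Those at Gstm6 and Gstm5 were under 1 kb, where 1.23% of all genes were at DOWN and 11.7% at UP. Those at Gstm7 and Gstm3 were 1 to 2 kb wide, where 3.01% were at DOWN and 20.5% at UP. Those at Gstm2 (2596 bp) and Gstm4 (4741 bp) were 2 to 5 kb wide, where 11.1% were at DOWN and 26.6% at UP. For the width class of Gstm1, 5 kb and wider, these shares were 30.1% and 29.5%. Over 149 kb with 10 kb on each side, the Gstm cluster had 16 regions. The only changed one was a DOWN region of 3509 bp, 2169 bp from the TSS of Gstm3. Of all regions, 10.5% were DOWN and 17.1% UP. The difference from the alpha and pi classes was not tested, since these 7 genes are neighbours on 1 chromosome.

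Of the smaller GST classes, zeta and omega had UP regions at a TSS. Gstz1, which isomerises maleylacetoacetate in the breakdown of tyrosine (ENSMUSG00000021033.11, chr12:87147165-87164723, plus strand), had 3 of 5 TSSs in an UP region of 1811 bp, and 1 in an unchanged region of 4307 bp. The UP region also held a TSS of Pomt2, a gene of protein O-mannosylation, so the class cannot be given to one of them alone. Gsto1, an omega class thioltransferase (ENSMUSG00000025068.8, chr19:47854970-47864790, plus strand), had 5 of 6 TSSs in an UP region of 971 bp, and its neighbour Gsto2 was at an unchanged region of 345 bp. In the theta class, 3 of 4 genes were at unchanged regions of 469 bp (Gstt3), 1389 bp (Gstt1) and 3895 bp (Gstt2), a DOWN region of 1520 bp lay 1633 bp from a TSS of Gstt1, and Gstt4 had no region at its TSSs. Gstk1, the kappa class enzyme of mitochondria and peroxisomes, was at the narrowest region of any member, an unchanged one of 213 bp.

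Most SULT genes had no listed region at their TSSs. Of the 5 that had one, 3 were at changed regions, where 29.5% of all genes in a region were. Sult1a1, the main phenol sulfotransferase of liver (ENSMUSG00000030711.16, chr7:126672865-126676432, minus strand), had all 3 TSSs in a DOWN region of 7679 bp, most of which (6005 bp) lay before the gene. Sult2a8, a bile acid sulfotransferase (ENSMUSG00000030378.15, chr7:14410686-14446769, minus strand), had 3 of 8 TSSs in a DOWN region of 3506 bp inside the gene, and its other 5 TSSs lay in no region. Sult1c2 (ENSMUSG00000023122.6, chr17:53829637-53846339, minus strand) had its single TSS in an UP region of 1107 bp. Sult1b1, which acts on thyroid hormones, and Sult1d1, which acts on catecholamines, were at unchanged regions of 2840 bp and 2688 bp, the former being the widest unchanged region at a SULT gene.

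The other SULT genes had few or no listed regions nearby. The 7 further Sult2a genes, which lie with Sult2a8 in a cluster of 870 kb on chromosome 7, had no region within 10 kb of a TSS, and only 3 regions covered 0.517% of that cluster with its flanks, all of them in the Sult2a8 gene body. Sequence is repeated in this cluster, and 29.6% of the words of 50 bases within 1 kb of the 5′ end of Sult2a1 and 31.7% at Sult2a2 occurred once in mm10, but 94.0% at Sult2a3 and 96.1% at Sult2a8 did. Sult3a1 and Sult3a2 had no region in their cluster. Sult1c1, Sult2b1, Sult4a1, Sult5a1, Sult6b1 and Sult6b2 had none at a TSS. Sult1e1, the oestrogen sulfotransferase, had none at its TSS but a DOWN region of 902 bp in its gene body, 970 bp away from it.

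Within 10 kb of a TSS, UP regions lay near more UGT genes than DOWN regions did, as over all genes, and DOWN regions lay near more GST and SULT genes than UP regions did. Any region lay within 10 kb of 48 members (75.0%), where 57.4% of all protein-coding genes had one. UP regions lay within 10 kb of 12 members (18.8%, against 16.6% of all protein-coding genes), of which 6 were UGT, 5 GST and 1 SULT. DOWN regions lay within 10 kb of 13 members (20.3%, against 8.08%), of which 2 were UGT, 7 GST and 4 SULT. Counted over genes with any region within 10 kb, as at the TSS, the members' UP share was 25.0%, below the 29.0% of all such genes, and their DOWN share was 27.1%, above 14.1%, so the direction of the UP difference depends on the denominator. Ugt2b36, Gsta3 and Gstp3 had both. The SULT genes that a DOWN region reached only at this distance were Sult1d1, with DOWN regions at 1141 bp and 3445 bp on the 2 sides of its unchanged region, and Sult1e1. These 2 genes and Sult1b1 form a cluster of 78.3 kb next to the Ugt2 genes. In this cluster, 3 of 7 regions were DOWN and none was UP, where 10.5% and 17.1% of all regions were. The difference between families was not tested, since genes of a cluster share these regions.

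**Figure D3:**
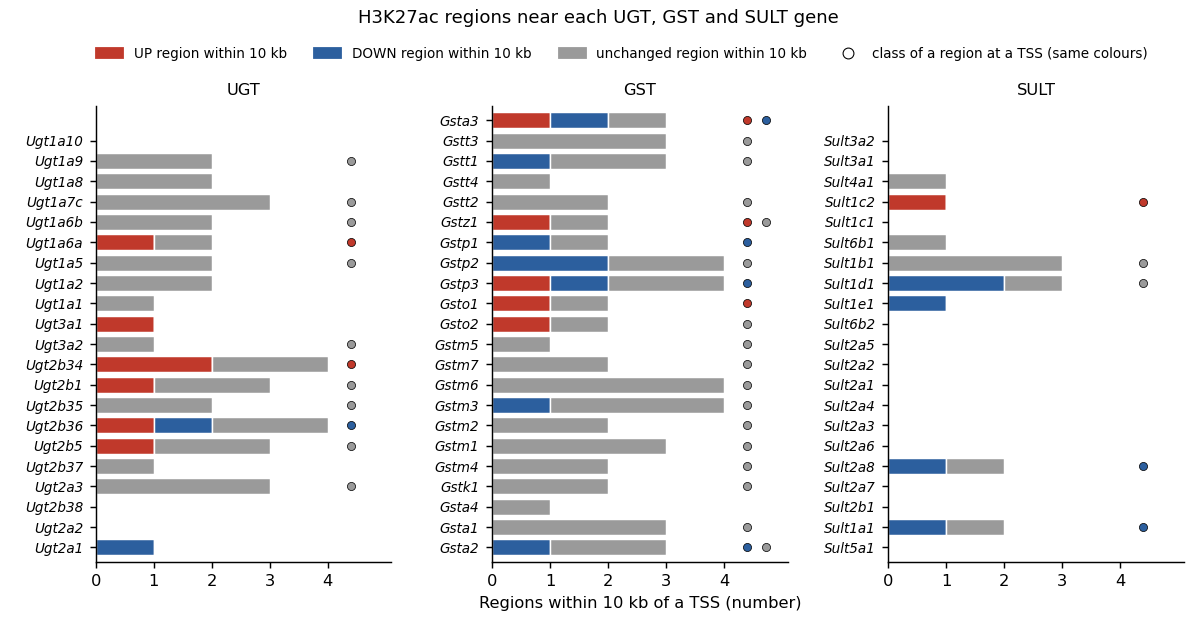
Number of H3K27ac regions within 10 kb of a TSS of each UGT, GST and SULT gene (stacked bars, coloured by class), with points for the classes of the regions that hold a TSS. Genes are in order of chromosome and position. UP regions lie near 6 UGT genes and 1 SULT gene, DOWN regions near 2 UGT, 7 GST and 4 SULT genes, and 16 members have no region within 10 kb.

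Region width went with the class, in the members as in all genes. The authors' call combines the bins of 150 bp in a region, so a wider region gives the test more bins. For the 37 members in a region, the widest region at a TSS had a median width of 3269 bp, against 1782 bp for all protein-coding genes in a region, with medians of 4405 bp for UGT, 2951.5 bp for GST and 2840 bp for SULT genes. The DOWN regions at the 7 members had a median of 5998 bp, the UP regions at the 6 members one of 3676 bp, and members at unchanged regions only had 2596 bp. Over all protein-coding genes the same medians were 4020 bp, 2116 bp and 1572.5 bp. The region of 8968 bp shared by Ugt1a7c and Ugt1a6b counts as the widest region of each, here and in the width classes.

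Compared with genes of like width, the members' DOWN share lay nearer to the background. Of 13 members whose widest region was 5 kb or wider, 5 (38.5%) were at DOWN, where 30.1% of all genes of this width were, and 3 (23.1%) at UP, where 29.5% were. The DOWN members were Ugt2b36, Gsta3, Gstp1, Gstp3 and Sult1a1. The widest region at Gsta3 was UP (10492 bp), and its DOWN region held only the start of a transcript with a retained intron. Between 2 and 5 kb, 2 of 11 members (18.2%) were at DOWN (Gsta2 and Sult2a8), against 11.1%, and 1 (9.09%) at UP, against 26.6%. The widest region at Gsta2 was unchanged (3307 bp). Between 1 and 2 kb, 0 of 6 were at DOWN, against 3.01%, and 1 at UP, against 20.5%. Under 1 kb, 0 of 7 were at DOWN, against 1.23%, and 1 at UP, against 11.7%. All 7 DOWN members thus had a region of over 2 kb. With 6 to 13 members in a width class, these differences from the background rest on a few genes each and were not tested.

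**Figure D4:**
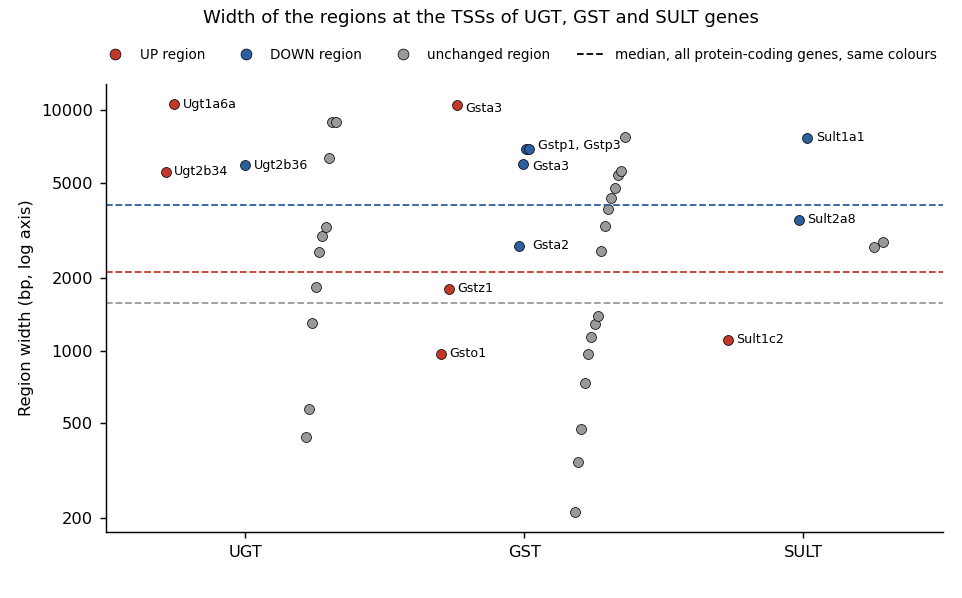
Width in bp (log axis) of each region at a TSS of a member, by family and class, with dashed lines for the median over all protein-coding genes of the same class. The region shared by Ugt1a7c and Ugt1a6b is drawn as 2 points. All DOWN regions at members are 2726 bp or wider, while UP regions reach from 971 bp to 10612 bp and unchanged regions from 213 bp to 8968 bp.

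**Figure D5:**
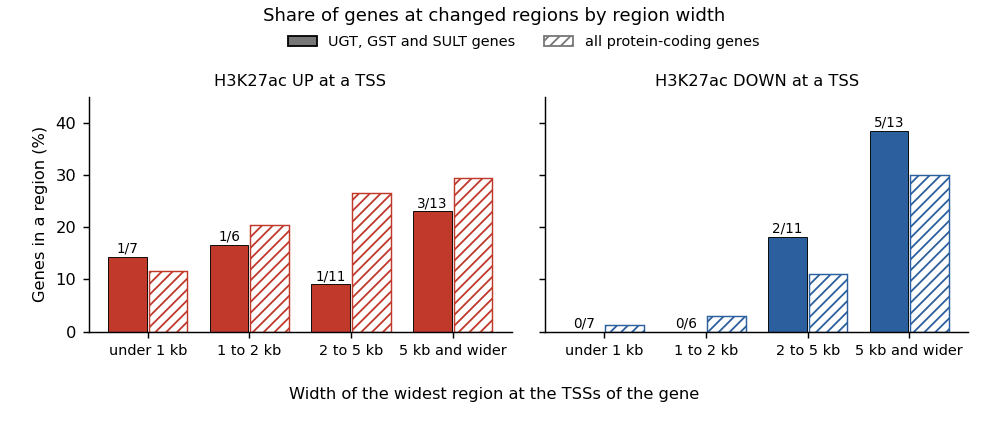
Share of genes with a TSS in an UP region (left) or a DOWN region (right), by the width of the widest region at the gene's TSSs, for the members (filled bars, with the count over the number of genes) and for all protein-coding genes (hatched bars). The DOWN share of all genes goes from 1.23% under 1 kb to 30.1% at 5 kb and wider, and that of the members from 0 of 7 to 5 of 13.

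The clusters differed in how much of them the listed regions covered. By a gap of at most 200 kb between neighbours of a family, 55 members fell into 12 clusters and 9 stood alone. The 64 members had 40 distinct regions at their TSSs, of which 6 were UP, 7 DOWN and 27 unchanged, and 1 of the 40 was shared by a pair of members (Ugt1a7c and Ugt1a6b). Regions covered 57.0% of the Gstp cluster, 18.7% of the Gstm, 17.9% of the Ugt1, 15.3% of the Gstt, 12.3% of the Sult1 cluster on chromosome 5, 11% of the Gsta, 10.7% of the Ugt2, 2.56% of the Gsto, 1.85% of the Ugt3, 1.43% of the Sult1c, 0.517% of the Sult2a and 0% of the Sult3a cluster, each with 10 kb on either side. Of 117 pairs of promoters within a cluster, the identity of the 250 bases before the TSS had a median of 50.7% and went up to 85.2% (Ugt2b37 and Ugt2b38), where pairs from different families had 48.5% and at most 56.0%. Among close pairs, Ugt2b5 (unchanged) and Ugt2b38 (no region) were 81.5% identical.

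The promoters of UGT and SULT genes were poorer in G, C and CpG than promoters in general. Those of GST genes had a higher GC content and a similar CpG ratio, but both were below those of promoters in a region. RefSeq promoters, here the 250 bases before and 50 bases after the TSS, were found for 56 members, and composition was taken from 1 promoter a member, the one in a changed region where there was one, otherwise one in any region or nearest the 5′ end. Entries for Gsta4, Gstt2, Sult2a1, Sult2a2, Sult2a7, Sult4a1, Ugt1a6b and Ugt3a2 were missing. Their median GC content was 44.5%, against 52.7% over 32851 promoters, with 37.0% for UGT, 55.6% for GST and 40.0% for SULT genes. The ratio of observed to expected CpG had a median of 0.194 over the members, against 0.384 over all promoters. It was 0.15 for UGT, 0.104 for SULT and 0.377 for GST genes. Of all promoters, 22519 lie in no region, with medians of 49.3% GC and a CpG ratio of 0.26. Promoters in UP, DOWN and unchanged regions had median CpG ratios of 0.808, 0.619 and 0.797. Among promoters that lie in a region, the contrast was larger, since the median GC content was 49.7% for the 6 members at UP, 46.3% for the 5 at DOWN and 47.9% for the 20 at unchanged regions, where all such promoters had 62.0%, 57.7% and 61.7%. Ugt2b36, Sult1a1 and Sult2a8 at DOWN and Ugt2b34 at UP held no CpG at all in this window, and the sequences printed for them hold none.

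Motif letters were searched on both strands of the same window in all 67 RefSeq promoters of the 56 members, since some members have more than 1. A match is only a run of letters. N stands for any base, so the AP-1 and D-box letters also take in runs such as TGATTCA in Ugt1a6a and TTAGGTAA in Sult1a1. Such runs were not shown to be sites of these factors. The AP-1 element (TGANTCA) was found in 13 of the 67 (19.4%, against 7.81% of all promoters) and the D-box of NFIL3 and the PAR-bZIP factors (TTANGTAA) in 3 (4.48%, against 2.32%). The NFE2L2/MAF element (TGACNNNGC) was in 3 (4.48%, against 12.4%), which belong to Gsta3, Gstm5 and Gstm7. The NF-Y element (CCAAT) was in 29 (43.3%, against 37.4%). Counted with 1 promoter a member, it was in 21 of 56 (37.5%), close to the share of all promoters. Of the motifs found once (1.49%), the AHR core (TTGCGTG) was in Sult1d1, the ATF4 element (TGATGNAA) in Sult1e1, the HNF4 element (CAAAGTCCA) in Sult1b1 and the UPR element (TGACGTG) in Sult2b1, against 1.16%, 3.97%, 0.475% and 2.01% of all promoters. In the printed sequences the capitals mark matches to the AP-1 letters at bases -124 to -118 of Ugt1a6a and -74 to -68 of Gstp1. They also mark the NFE2L2/MAF letters at -121 to -113 of Gsta3 and the D-box letters at -197 to -190 of Sult1a1. The NF-Y letters are marked in Ugt1a6a, Gsta3, Gstz1 and Sult1a1. Most of the Gstp1 match lies in an annotated untranslated region of another transcript. An AP-1 match can overlap an NFE2L2/MAF match, and Gstm5 held both.

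Of 47 other genes of conjugation (cofactor supply, other transferases, deconjugation, export and regulators), 42 had a TSS in a region, with 6 at UP, 11 at DOWN and 25 at unchanged regions only, against the 21.7% UP and 8.31% DOWN of all genes in a region (14.3% and 26.2% here). In the supply of cofactors, Ugp2 (UDP-glucose synthesis, 4797 bp) and Papss1 (PAPS synthesis, 1177 bp) were at UP regions, and Gclc and Gss, which make glutathione, were at DOWN regions, Gclc also at an unchanged one. Ugdh, which makes UDP-glucuronate, was at an unchanged region of 20098 bp. Among other transferases, Mgst1 (8547 bp) and Nnmt, which was also at an unchanged region, were among those at DOWN regions and none was at UP. Of the exporters of conjugates, Abcc2 and Abcc4 were at UP regions, Abcc2 also at an unchanged one, and Abcc3 was at a DOWN region. Among 14 regulators of these genes, those at DOWN regions included Nr1i2 (the xenobiotic receptor PXR), Nfe2l2 (NRF2), Nr1h4 (FXR) and Hnf4a. Nfil3 and Tef were at UP regions, and 7, among them Nr1i3, Ahr and Keap1, were at unchanged regions only. Nr1h4 and Tef were each at an unchanged region as well. No expression values were used here, and a class at a regulator says nothing of the class at its targets.

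Of the 64 members, 9 are on the study's list of LIVER-ID genes, which holds genes with a broad H3K4me3 domain at the TSS mainly in liver. These were Ugt1a9, Ugt1a7c, Ugt1a6b, Ugt2b34, Ugt2b1, Ugt2b35, Ugt2b36, Ugt2b5 and Gsta3. All 9 had a TSS in a region, with 2 at UP (Ugt2b34 and Gsta3), 2 at DOWN (Ugt2b36 and Gsta3) and 6 at unchanged regions only, where all genes in a region had 21.7%, 8.31% and 70.5%. Of the other 55 members, 28 had a TSS in a region, with 4 at UP, 5 at DOWN and 19 at unchanged regions only. The difference between these groups was not tested.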

How the data were processed

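H3K27ac ChIP-seq was measured in mouse primary hepatocytes with 3 libraries and 1 input for each of thapsigargin and vehicle. The authors called broad MACS2 peaks on pooled libraries, counted reads in bins of 150 bp with csaw, filtered bins against the input, normalized by loess and tested bins by a quasi-likelihood fit that paired the experiments. Bins were combined per peak. A peak was called at a false discovery rate of at most 0.05. It was UP where rising bins outnumbered falling bins by a ratio of 2 or more, and DOWN at a ratio of 0.5 or less. By this rule a called peak with a ratio between 0.5 and 2 has no class. Bowtie and mm10 are named in the submitters' processing notes. The deposited lists hold positions, with no count, score or depth.

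Here the TSSs of every protein-coding gene of GENCODE M21 were intersected with the regions (Python 3.11.15, numpy 2.4.6, pandas 2.3.3), also within 10 kb, after the scripts were tested on simulated regions. Distances are from the nearest TSS. No test was run between families, because neighbouring genes share regions. Promoters came from RefSeq (GRCm38.p6). Only the 10 printed sequences were compared with mm10, and none differed from it. The members and lists were chosen with earlier results of these data known. The members named are those with a changed region at a TSS, examples with one within 10 kb, Gsta3, Ugt2b1, the widest unchanged region of each family and the cluster mates of members at changed regions. Others were named after their classes were seen. Protein identity was not analysed here, and some genes and motifs of the lists are not reported here.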

Additional observations from a re-analysis of the deposited data

How the results depend on the processing

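No paired analysis was possible because the lists give positions without any measurement of a single library, and leaving out each replicate could not be run for the same reason. Of 83 alternatives, 59 stayed within 1.5 times the reported value and 24 moved beyond it, most of them by reaching farther from the TSS, which adds regions by construction. Within 5 kb of a TSS, DOWN regions reached 12 members, of which 7 were GST and 4 SULT. Of all genes with a region that near, 11.1% had a DOWN region. Within 10 kb, 13 members had a DOWN region (2 UGT, 7 GST, 4 SULT) and 12 an UP region (6 UGT, 5 GST). Of all genes with a region within 10 kb, 14.1% had a DOWN and 29.0% an UP region. Within 50 kb, 27 had a DOWN region (5 UGT, 16 GST, 6 SULT), 30 an UP region (12 UGT, 15 GST, 3 SULT) and 10 had unchanged regions only, where all genes with a region that near had 27.7%, 46.9% and 38.3%. Where 500 bp on each side of a TSS had to be covered, 14 members were at unchanged regions only. Of all genes so covered, 64.9% were. The number of members with any region at 5 kb, 50 kb or this cover is not given here. These counts are therefore not shares. With the 5′ end of each gene alone, 1 SULT gene was at DOWN, where 6.9% of all genes in a region were. With each gene classed by its widest region, 2 GST genes were at DOWN, where 7.73% of all genes in a region were. Among the members at a changed region, 58.3% were at DOWN and 50% at UP, where all genes at a changed region had 28.1% and 73.3%. Without the Gstp cluster, an alternative chosen after seeing the data, 5 members were at DOWN and 6 at UP. All genes in a region had 8.31% and 21.7%. Without depth or counts, how firmly a region was called unchanged is unknown.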
